A study of Tuber melanosporum with 9 samples.

Results

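The repeat list of the black truffle *Tuber melanosporum* holds 13248 elements of the class Gypsy, and the 3370 of them that are longer than 4000 bp are described here. They were chosen by class and length alone, with no methylation or RNA value used, and they stand among 27168 classified transposable elements (TEs) and 45028 listed repeats. Together they span 24634946 bp, which is 19.5% of the 124945702 bp v1.0 assembly. Methylation was measured by bisulfite sequencing (BS-seq) in 5 libraries and RNA by sequencing in 4 libraries, with 1 library per condition and no replicates. No difference between libraries can therefore be tested, and each value below is a description of these libraries.

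The fruitbody (FB) was 1 mature body collected in Auvergne, and the sources used here give no strain for it. The ectomycorrhizal root tips (ECM) came from inoculated hazel plantlets and also contained host root cells, and this stage has BS-seq but no RNA-seq here. The free-living mycelium (FLM) was the Mel28 strain, from which the reference genome was made, grown for 5 weeks on malt agar. The 5-azacytidine experiment used wild-type mycelia of the same strain, labelled Tmel28, in synthetic liquid medium in the dark. Treated cultures received the drug at 100 µM final concentration every 5 days for 45 days, with the last dose 24 hours before harvest, and untreated cultures received water. Stage, strain and growth conditions vary together between FB and FLM and cannot be told apart. FLM and the untreated mycelium also differ in medium, agar or liquid culture, and sequencing read length.

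Gypsy elements are retrotransposons, which spread by copying their RNA into DNA. A complete copy carries a long terminal repeat (LTR) at each end, and between them genes for a structural protein and for the enzymes that make and insert the DNA copy. The promoter lies in the LTR. In many fungi cytosine methylation is found mainly in such repeats, where it goes along with transcriptional silence. It is read in 3 sequence contexts, CG, CHG and CHH, where H is A, C or T. A CG site, and a CHG site whose H is A or T, faces a site of the same context on the other strand, and a CHH site does not. 5-azacytidine is a cytosine analogue that is built into nucleic acids and traps DNA methyltransferases.

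The long Gypsy elements measured 4002 to 16223 bp, with a median of 6999 bp and quartiles of 5698 and 8299 bp. They were spread over 332 of the 398 scaffolds, with 1802 on the plus and 1568 on the minus strand. The longest lay on scaffold 38 (522275 to 538497) and had 83.5% CG methylation in FB and 85.6% in FLM. The shortest lay on scaffold 188 (132192 to 136193) and had 83.4% in FB and 74.7% in FLM. Next to the length limit, the 3 elements just inside had 83.4, 87.5 and 86.3% CG methylation in FB, and the 3 Gypsy elements of 3998 or 3999 bp just outside had 79.7, 77.5 and 88.0%. The names in the repeat list put the long elements in 686 families, of which 238 had 1 long copy and 55 had at least 10, and these 55 held 1709 copies. The largest family, P171.3-MAP4, had 170 long copies. For 183 elements some of the span (420280 bp in all) was also listed under another repeat.

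The methylation level of a cytosine is its methylated reads over all its reads, in percent, and the level of an element is the mean over its cytosines of a context with at least 4 reads, or at least 1 read in ECM. At least 10 such cytosines were needed. In the long Gypsy elements the median depth was 12.1 reads per cytosine in FB, 0.294 in ECM, 13.1 in FLM, 4.77 in 5-aza-treated and 4.10 in untreated mycelium. These depths are 0.598 to 0.666 times the mean of their own library over all cytosines. Of the cytosines of an element, a median of 87.3% had the minimum number of reads in FB, 24.5% in ECM, 92.9% in FLM, 54.7% in treated and 47.5% in untreated mycelium. A median of 42.0% of the bases of an element appear as a cytosine on either strand in at least 1 library, and 100 elements have under 30%. The ECM values rest on single reads per site (median 1 read) and only their medians over many sites are precise.

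Long Gypsy elements were densely methylated at CG sites in all 5 libraries. The median CG level was 83.3% in FB (95% interval of the median 83.1 to 83.6%, quartiles 79.5 and 86.5%), 81.7% in ECM (81.5 to 81.9%) and 83.5% in FLM (83.2 to 83.7%, quartiles 78.0 and 86.2%). It was 87.7% in the treated (87.4 to 87.9%) and 87.6% in the untreated mycelium (87.4 to 87.9%). These intervals come from order statistics over elements and cover neither variation between samples nor the shared origin of copies. A level over 80% was found in 72.6% of the elements measured in FB, 61.6% in ECM, 67.0% in FLM, 83.0% in treated and 82.8% in untreated mycelium.

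Methylation outside CG was present in nearly every long element, far below the CG level. The median CHG level was 16.3% in FB, 16.6% in ECM, 14.3% in FLM, 15.5% in treated and 18.7% in untreated mycelium. The median CHH level was 18.6% in FB, 20.0% in ECM, 17.8% in FLM, 18.5% in treated and 22.0% in untreated mycelium. The untreated mycelium thus had the highest median in both non-CG contexts. Elements with much CHG methylation also had much CHH methylation, with a Spearman correlation of 0.940 across 3370 elements in FB. The CG and CHH levels were less closely linked, at 0.492 in FB (3369 elements) and 0.641 in FLM (3370 elements). The 2 measures of an element share library, depth and base composition, so these correlations are descriptions.

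**Figure D1:**
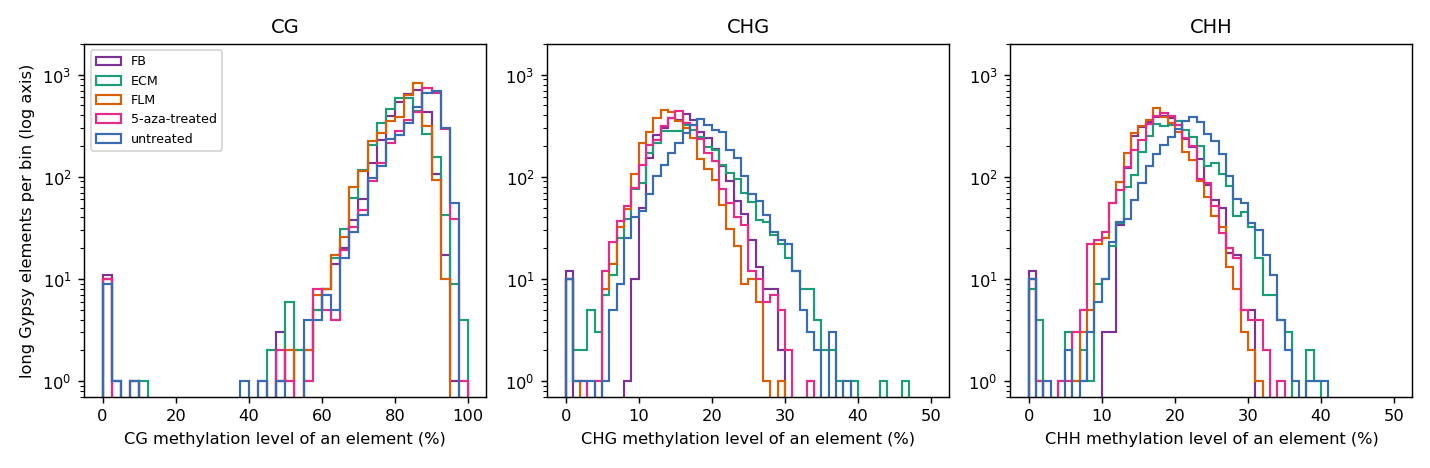
Distribution of the methylation level (%, x axis) of the long Gypsy elements at CG, CHG and CHH sites, with the number of elements per bin on a log axis (y) and 1 line per library. Most elements sit around the medians of 81.7 to 87.7% for CG, and a separate group of 11 or 12 elements sits under 10% for CG.

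Single sites within the elements show how these means arise. Of the CG sites in long Gypsy elements, 74.2% were over 80% methylated in FB and 71.4% in FLM, and 5.68% were under 10% in FB and 4.95% in FLM. Few non-CG sites were highly methylated, with a level of 50% or more at 6.62% of the CHG and 9.57% of the CHH sites in FB, and many were nearly unmethylated. Under 10% were 45.3% of the CHG and 41.9% of the CHH sites in FB, and 51.1% of the CHG and 44.5% of the CHH sites in FLM. Among 466007 CG pairs with the minimum on both strands in FB, 64.7% were over 80% on both strands, 4.31% were under 10% on both, and 326 (0.0700%) were over 80% on one strand and under 10% on the other. CHG pairs did not show this pairing, but each of them sets a cytosine before A against one before T. CHG sites averaged 19.3% before A and 13.3% before T in FB, and 18.4 and 10.0% in FLM. The part of this base difference in the strand values below was not tested. Where the plus-strand cytosine of a CHG pair was at 50% or more in FB, the minus-strand cytosine averaged 14.7%, against 17.6% where the plus strand was under 10%. In FLM these means were 9.58% and 16.4%. The mean absolute difference between the strands was 10.4 points for CG and 19.0 points for CHG pairs in FB.

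The base after the cytosine went along with the non-CG level in every library. In FB the CHH level averaged 25.3% at CA, 19.3% at CC and 9.89% at CT sites, and the CHG level 19.3, 15.8 and 13.3% in the same order. FLM had 25.4, 18.5 and 8.01% for CHH. The order CA, CC, CT held in all 5 libraries and in both contexts. CA is the dinucleotide altered by repeat-induced point mutation in *Neurospora crassa*. For *T. melanosporum* the paper reports no evidence of that process. Elements with a larger share of CA among their cytosines had higher CHH levels in FB (Spearman 0.358, 3370 elements), where the share enters the mean directly.

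Set against shorter Gypsy elements, the long ones did not have a higher median CG level but had a narrower spread and far fewer unmethylated members. In FB the median was 83.3% for the long elements (SD over elements 7.33), 85.2% for the 5609 measured Gypsy elements of 701 to 4000 bp (SD 15.8) and 85.8% for the 2332 of up to 700 bp (SD 28.1). Other classified TEs had 78.2% (SD 37.9), and those among them over 4000 bp 84.2% (SD 29.4). In FLM the medians were 83.5% for the long, 86.0% for the middle and 86.4% for the short Gypsy elements. A CG level under 10% was found in 12 of 3369 long elements in FB, which is 0.356% (exact binomial 95% interval 0.184 to 0.621%). It was found in 2.30% of the middle (1.92 to 2.73%) and 10.2% of the short Gypsy elements (8.97 to 11.5%), and in 12.9% of the other TEs over 4000 bp (10.8 to 15.3%). Over all classified TEs the share was 14.97%. Exact intervals here and below treat elements as independent draws and cover counting error only. The median number of CG sites measured in FB was 319 in long, 53 in middle and 10 in short Gypsy elements and 304 in other TEs over 4000 bp, and the part of this number in the spread was not tested.

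Within the long elements, length itself was weakly related to methylation. Length and CG level had a Spearman correlation of -0.0571 in FB and -0.125 in FLM, and length and CHH level one of -0.146 in FB. Long elements were richer in CG sites than the shorter ones, with a median of 14.4% of the listed cytosines in CG, against 9.80% in the middle and 8.86% in the short Gypsy elements. The name endings given by the submitters (comp, 598 elements, incomp, 2604, and confused, 168) differed little, with median CG levels in FB of 84.3% for comp, 83.1% for incomp and 84.2% for confused. What these endings stand for is not stated in the sources used here.

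Families differed from each other less than copies within a family. Over the 55 families with at least 10 long copies, the family medians in FB ran between 78.1 and 88.7% with an SD of 3.16 points, and the SD within families was 4.48 points. The lowest medians in FB were those of G13034-MAP8 (78.1%, 21 copies), G7466-MAP20 (78.1%, 11 copies) and G15132-MAP3 (78.6%, 12 copies). In FLM these families had 78.4, 76.5 and 76.8%. The highest medians in FB were those of G9117-MAP3 (88.7%, 40 copies), G12745-MAP3 (87.9%, 12 copies) and P141.3-MAP3 (87.8%, 12 copies), with 88.0, 87.7 and 87.4% in FLM. The high families kept more CHH methylation too, with medians of 23.7, 22.9 and 21.5% in FB against 16.6, 17.4 and 16.2% in the low ones, each in the order given. The largest family, P171.3-MAP4, had 86.4% (FB) and 86.3% (FLM) as its medians, and its copies ran between 66.5 and 92.5% in FB.

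Most long elements lay far from genes, much as shorter Gypsy elements and other TEs over 4000 bp did. Of the 7496 genes in the gene table, 7420 could be placed on the assembly. Of the long elements, 34 (1.01%) overlapped a gene, 29 lay within 1 kb of one, 846 at 1 to 10 kb and 2305 (68.4%) at over 10 kb, and 156 lay on scaffolds without a placed gene. The median distance to the nearest placed gene was 20422 bp, against 20440 bp for Gypsy elements of 701 to 4000 bp, 18969 bp for those of up to 700 bp and 19239 bp for other TEs over 4000 bp. For the other classified TEs of any length it was 13742 bp, and for all classified TEs 16816 bp. The median CG level in FB was 86.3% for the elements that overlapped a gene, 85.6% for those within 1 kb, 84.3% at 1 to 10 kb and 82.9% at over 10 kb. The CHH level in FB was 21.2, 22.1, 20.0 and 18.0% in the same classes. The same order from 1 to 10 kb to over 10 kb was seen for both contexts in each of the other 4 libraries, for example 84.4 and 82.8% CG in FLM. Across 3213 elements the Spearman correlation of gene distance with the CG level was -0.222 in FB.

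The 500 bp at the ends of the long elements, where the LTRs of a complete copy lie, were more methylated at CG sites than the interior. The median difference of an element (edges minus interior) was 2.97 points in FB (95% interval 2.75 to 3.17), 3.32 in ECM (2.55 to 3.74, 2086 elements), 3.86 in FLM (3.64 to 4.11), 2.93 in treated (2.68 to 3.24) and 3.14 in untreated mycelium (2.89 to 3.40). The edges were higher in 68.9% of 3317 elements in FB, 60.7% in ECM, 74.3% in FLM, 67.5% in treated and 67.0% in untreated mycelium. Gypsy elements of 701 to 4000 bp showed a median difference of 0.0737 points in FB and 0.312 in FLM, and other TEs over 4000 bp 0.266 in FB and 0.140 in FLM. For CHH the difference in long elements was 1.41 points in FB, 0.352 in ECM, 0.799 in FLM, 0.216 in treated and 0.228 in untreated mycelium, against 0.983 in FB and 0.281 in FLM for other TEs over 4000 bp. In FB the edges were higher for CHH in 68.8% of the long Gypsy elements and 67.2% of the other TEs over 4000 bp. The ECM value for CG was 0.214 points where 2 ECM reads were asked for at each site. With the outer 1000 bp as edge, the CG difference was 1.69 points in FB, 1.52 in ECM, 1.99 in FLM, 1.35 in treated and 1.41 in untreated mycelium.

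The plot of the level by distance places this higher level in about the outer 600 bp. In FB the mean CG level was 84.4% in the first 100 bp inside the 5′ end, 84.9% at 400 to 500 bp, 81.1% at 1000 to 1100 bp and 81.3% at 1900 to 2000 bp. Just outside the 5′ end it was 82.6%, and it was 72.0% at 900 to 1000 bp outside. The 3′ end mirrored the 5′ end, with 84.9% just inside, 82.2% just outside and 70.1% at 900 to 1000 bp outside. Median CG levels of the 500 bp at the 5′ and at the 3′ end were 86.6 and 86.9% in FB and 87.2 and 87.3% in FLM. Far outside, ECM had 65.5% on the 5′ side, against 73.0% in FLM.

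**Figure D2:**
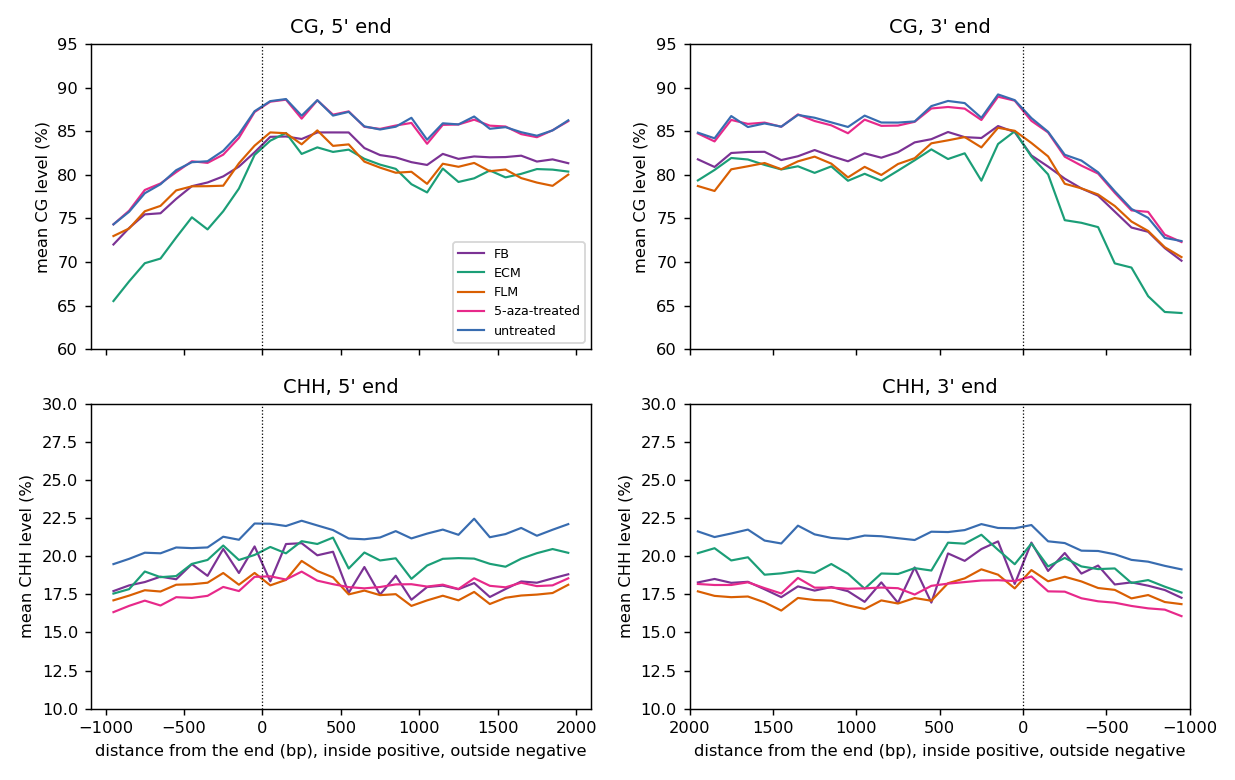
Mean CG (top) and CHH (bottom) methylation level (%, y axis) in bins of 100 bp by distance from the 5′ and 3′ end of the long Gypsy elements (bp, x axis, inside positive), with 1 line per library. In FB the CG level is 84.4% just inside the 5′ end, 81.3% at 1900 to 2000 bp inside and 72.0% at 900 to 1000 bp outside.

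Unmethylated stretches inside methylated long elements were few in FB. Of 45675 windows of 500 bp with at least 5 measured CG sites in FB, 141 were under 20%, and of 45559 windows measured in both FB and FLM, 127 were under 20% in both. These 127 windows lay in 13 elements. Of these elements, 2 had a CG level of 50% or more, and in each of them the 1 such window lay at an end. Counted in single libraries, methylated elements (50% or more) with at least 1 window under 20% numbered 3 in FB, 35 in ECM, 25 in FLM, 66 in treated and 61 in untreated mycelium, and the part of depth in these numbers was not tested.

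A few long elements had almost no CG methylation. In FB 12 elements had CG levels of 0.350 to 2.85%, and the lowest of the other elements had 48.3%. Of the 12, 11 were under 10% in all 5 libraries, and their highest level was 2.70% in ECM, 7.57% in FLM, 8.18% in treated and 9.86% in untreated mycelium. The lowest level outside the 12 was 45.5% in ECM, 47.9% in FLM, 44.2% in treated and 39.7% in untreated mycelium. The remaining element of the 12 lay between these levels in ECM, at 11.6%, and among the methylated elements in mycelium. They also lacked non-CG methylation, with CHH levels of 0.394 to 0.858% in FB for all 12 and of 0.149 to 1.77% in FLM for the 11. All 12 had at least 173 measured CG sites in FB. The median relative depth of the 11 was 1.23 in FB, 1.13 in ECM and 1.24 in FLM, against 0.613 in FB, 0.610 in ECM and 0.665 in FLM for the rest, and its part in the levels was not tested. They were not poor in CG sites, with a median of 14.9% of the listed cytosines in CG, against 14.4% for the rest. In the 500 bp on either side of them the CG median was 0.845% in FB and 12.6% in FLM (10 elements), against 84.8% in FB and 85.4% in FLM for the rest. None of the 12 overlapped a placed gene.

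These 12 elements belonged to 6 families. R915-MAP12 gave 5 of them, on scaffolds 145 (13547 to 18431), 153 (57876 to 65160), 155 (44422 to 49367), 293 (12374 to 18283) and 46 (732070 to 736261). The last of these had the fewest CG sites and was named after its values were seen. Its CG level was 0.659% in FB, 1.32% in ECM and 0.202% in FLM. The copy on scaffold 145 had 0.519% in FB, 0% in ECM, 0.213% in FLM, 0.470% in treated and 0.758% in untreated mycelium. The copy on scaffold 293 had 0.438% in FB, 2.40% in ECM and 0.250% in FLM. The copy on scaffold 155 had 0.708% in FB, 2.70% in ECM, 7.57% in FLM, 8.18% in treated and 9.86% in untreated mycelium. Its outer 500 bp at both ends had 24.1% in FLM, 22.0% in treated and 30.2% in untreated mycelium. Its interior had 2.29, 3.06 and 2.56% in the same order. The 500 bp around that copy had 20.1% in FB and 60.1% in FLM. The sixth long copy of R915-MAP12 was methylated, at 77.0% in FB and 73.2% in FLM.

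The other 4 families of elements that were unmethylated in all libraries had 1 or 2 such copies each. G14358-MAP3 had both of its long copies in the group, on scaffold 40 (129534 to 134561; 0.350% in FB and 0.221% in FLM) and scaffold 114 (88109 to 93110; 0.439% in FB and 0.263% in FLM). R1921-MAP3 likewise had both of its long copies, 8565 and 8559 bp long, on scaffold 144 (100711 to 109275 and 203148 to 211706), with 0.850 and 1.60% in FB and 0.322 and 2.23% in FLM. G13982-MAP6 had its only long copy on scaffold 111 (2961 to 7963), at 0.518% in FB and 0.287% in FLM. G10537-MAP3 had 1 unmethylated copy on scaffold 34 (39294 to 44904), at 1.02% in FB and 0.817% in FLM, and a methylated one at 77.4% in FB and 86.2% in FLM. The DNA around these elements was not uniform, since the flanking 500 bp of the scaffold 111 copy had 0.909% CG methylation in FB and those of the scaffold 40 copy 71.2%.

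The twelfth element was the exception, methylated in mycelium and unmethylated in FB. It is a copy of P130.126-MAP3 on scaffold 346 (13540 to 17967, minus strand). Its CG level was 2.85% in FB, 11.6% in ECM, 83.8% in FLM, 90.4% in treated and 92.3% in untreated mycelium. The CHH level was 0.858% in FB, 4.39% in ECM, 17.5% in FLM, 16.6% in treated and 19.5% in untreated mycelium, so that all contexts moved together. All 216 measured CG sites were covered in FB and FLM, at 46.4 reads per cytosine in FB, 1.07 in ECM, 29.4 in FLM, 14.9 in treated and 12 in untreated mycelium. The library means over all cytosines were lower, at 19.7 in FB, 0.481 in ECM, 19.6 in FLM, 7.97 in treated and 6.69 in untreated mycelium. Most long elements lay below these means, and the part of the high depth of this copy in its levels was not tested. The flanks of the copy had 29.6% in FB and 81.6% in FLM. The other long copies of the family ran up to 84.6% in FB and between 81.7 and 86.3% over all 5 in FLM. No gene was placed on scaffold 346.

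**Figure D3:**
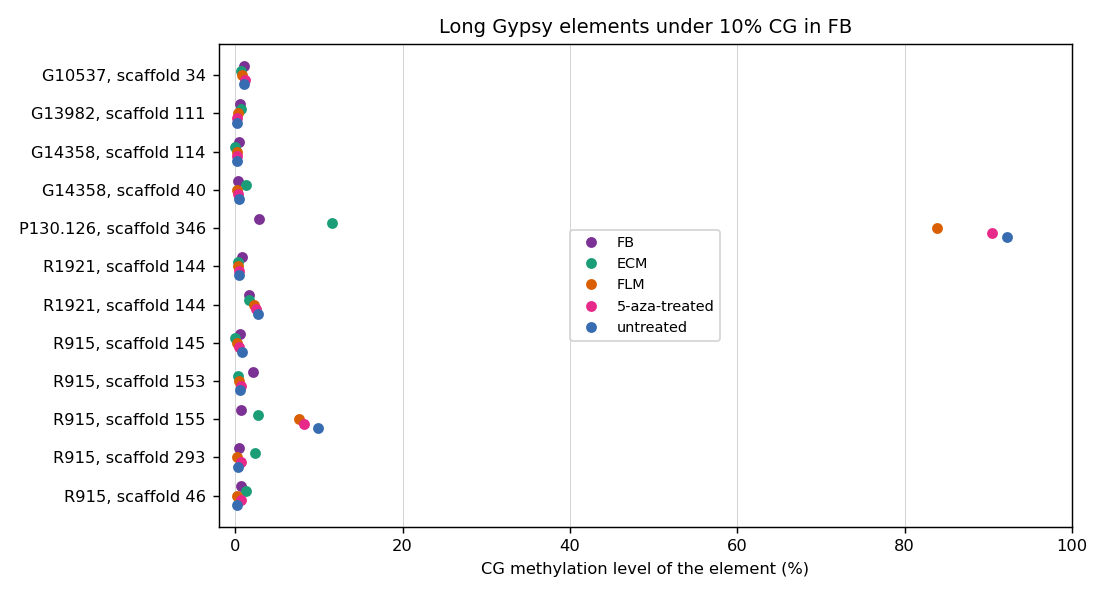
CG methylation level (%, x axis) in each of the 5 libraries (points, coloured by library) of the 12 long Gypsy elements under 10% in FB, named by family and scaffold (y axis). The P130.126-MAP3 copy on scaffold 346 has 2.85% in FB, 11.6% in ECM and 83.8% in FLM, and the other 11 stay under 10% in every library.

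FB and FLM were compared at cytosines with at least 4 reads in both. The median of FB minus FLM was +0.969 points for CG (95% interval 0.822 to 1.14), +1.87 points for CHG (1.81 to 1.93) and +0.593 points for CHH (0.526 to 0.650). FB was lower in 38.9% of the elements for CG, 10.6% for CHG and 33.2% for CHH. A difference of at least 10 points in CG was seen in 109 elements with FB higher (3.24%) and 112 with FB lower (3.32%). Over all classified TEs 9.26% were higher and 10.7% lower by this rule. A difference of at least 5 points in CHG was seen in 145 elements with FB higher (4.30%, against 12.6% of all TEs) and 6 with FB lower (0.178%, against 4.05%). For CHH these were 30 elements higher (0.890%, against 6.62%) and 9 lower (0.267%, against 4.94%). These shares lay under those of all TEs, which are mostly shorter and have fewer measured sites. Among the other TEs over 4000 bp, 0.996% were higher and 7.74% lower for CG, 4.10% higher and 2.55% lower for CHG, and 1.10% higher and 3.42% lower for CHH. The share higher for CG was thus larger in long Gypsy elements than in these, and the shares higher for CHG and CHH were close. With a mean of at least 4 reads per cytosine in both libraries, 70 were lower for CG, and with 10 reads per cytosine 306 were higher for CHG.

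The non-CG excess of FB over FLM lay mostly at CT sites. At common sites in long Gypsy elements the CHG level at CT was 13.3% in FB, against 10.2% in FLM, so FB was higher by 3.15 points, and at CA by 0.760 points. For CHH the difference was 1.76 points at CT and 0.496 at CC, and at CA FB minus FLM was -0.430 points.

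The elements with the largest changes differed in how well FB covered them. Apart from the scaffold 346 copy (-81.0 points), the lowest was a G14085-MAP5 element on scaffold 227 (56713 to 67331), with 48.3% in FB and 76.5% in FLM at 97 common sites. Its FB depth was 1.57 reads per cytosine, against 15.2 in FLM, and whether depth takes part in the difference was not tested. Next came a P171.3-MAP4 copy on scaffold 64 (504262 to 509166), with 66.8% in FB and 92% in FLM. On the other side, 3 elements had intermediate levels in FLM and typical ones in FB. A G15033-MAP3 element on scaffold 10 (1143981 to 1151368) had 86.6% in FB and 54.9% in FLM at common sites. A G12654-MAP3 element on scaffold 44 (299498 to 306219) had 78.1% in FB and 46.5% in FLM. A G13871-MAP5 element on scaffold 10 (1075246 to 1079279) had 80.9% in FB and 52.6% in FLM. In all 3 the untreated and treated mycelia were low too, at 39.7 to 48.6%, and ECM was at 70.5 to 90.5%. The G15033-MAP3 element was thinly covered there, with 21 CG sites in ECM, 28 in treated and 23 in untreated mycelium. At the 18 sites common to both cultures it had 58.4% in treated and 58.9% in untreated mycelium.

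ECM and FLM were compared with 1 ECM read per site. For CG the median of ECM minus FLM was -0.281 points (-0.572 to -0.0534). For CHG it was +2.06 points (1.88 to 2.20) and for CHH +2.00 points (1.89 to 2.11). For CG, 210 elements were higher by at least 10 points (6.25%, against 8.57% of all TEs) and 237 lower (7.05%, against 18.8%). For CHG, 713 were higher by at least 5 points (21.2%, against 24%) and 108 lower (3.21%, against 15.9%), and for CHH 526 were higher (15.6%, against 20.7%) and 49 lower (1.45%, against 16.3%). The calls rest on a median of 91 common CG sites per element, and with 2 ECM reads per site 354 elements were higher for CG and 280 lower for CHG.

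Some elements in this comparison repeated those of FB. The scaffold 346 copy had 11.6% in ECM and 81.7% in FLM at 135 common sites, the element on scaffold 44 had 72.5% in ECM and 41.3% in FLM, and the element on scaffold 10 (1075246) had 78.6% in ECM and 48.8% in FLM. Because both comparisons use the same FLM library, they are not independent. Of the other named elements, 2 were lower and 1 was higher in ECM than in FLM. A G11594-MAP3 element at the start of scaffold 156 (19 to 7275) had 50.9% in ECM and 92.1% in FLM at 54 sites, and 74.0% in FB. A G7562-MAP10 element on scaffold 168 (221363 to 225672) had 61.3% in ECM and 94.0% in FLM at 31 sites, with 89.7% in FB. A G13396-MAP3 element on scaffold 37 (710019 to 716876) had 90.0% in ECM and 57.6% in FLM at 25 sites.

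Treatment with 5-azacytidine went along with less CHG and CHH methylation and nearly the same CG methylation. For CG the median of treated minus untreated was -0.198 points (-0.239 to -0.150). For CHG it was -3.19 points (-3.25 to -3.13) and for CHH -3.51 points (-3.56 to -3.46). The treated library was lower for CHH in 98.4% of 3368 elements, for CHG in 95.9% and for CG in 57.3%. For CG no element passed the call of 10 points in either direction, against 0.118% of all TEs higher and 0.209% lower. For CHG 473 elements were lower by at least 5 points (14.1%, against 23.1% of all TEs) and 2 higher (0.0595%, against 1.27%). For CHH 447 were lower (13.3%, against 23.8%) and 2 higher (0.0594%, against 0.684%). With 10 reads per cytosine 791 elements were lower for CHG and 822 for CHH. Among other TEs over 4000 bp, 11.5% were lower for CHG and 12.1% for CHH at the 4-read minimum. The 2 cultures carry the drug difference on 1 library each, so the drug and the library cannot be told apart.

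The lower non-CG level was proportional across sequence contexts. The ratio of the treated to the untreated level at common sites was 0.833 at CA, 0.831 at CC and 0.814 at CT sites for CHG, and 0.838, 0.839 and 0.822 for CHH. In points the difference was largest where the level was highest, with 25.8% in the treated and 30.7% in the untreated mycelium at CHH sites before A. The CG levels of an element agreed closely between the cultures, with a Spearman correlation of 0.940 over 3365 elements, against 0.663 between FB and FLM over 3369. Both values also depend on depth, which differs between these pairs of libraries.

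**Figure D4:**
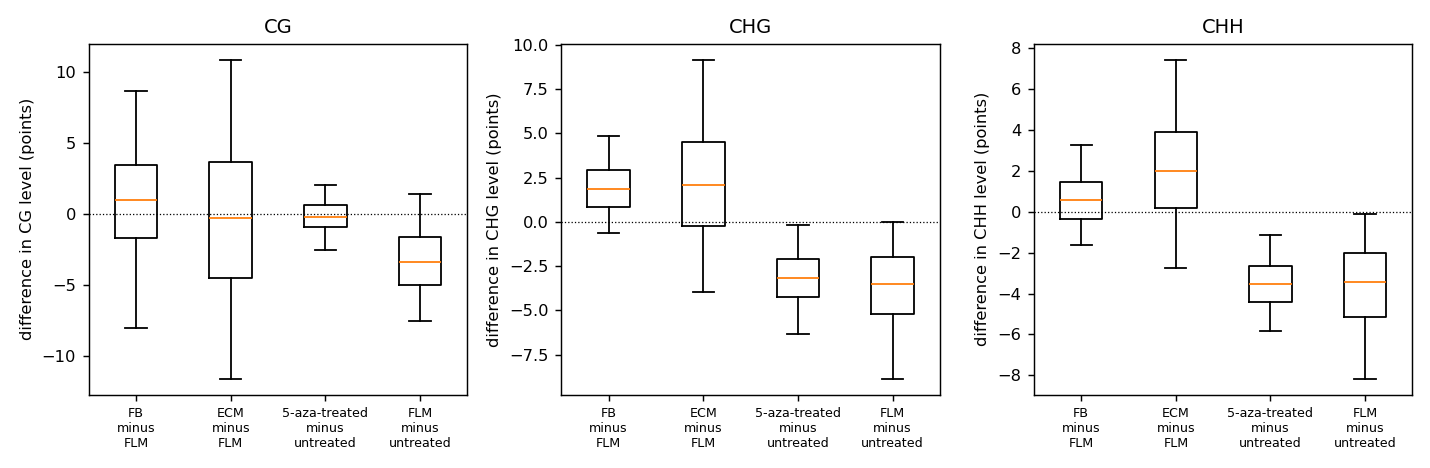
Difference in methylation level (points, y axis) of the long Gypsy elements for each pair of libraries (x axis) at CG, CHG and CHH sites. Boxes span the quartiles with the median as a line, and whiskers reach the 5th and 95th percentile of elements. The median of 5-aza-treated minus untreated is -0.198 points for CG and -3.51 points for CHH.

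FLM on agar had less methylation than the untreated liquid culture in all 3 contexts. For CG the median of FLM minus untreated was -3.38 points (-3.47 to -3.29). For CHG it was -3.49 points (-3.56 to -3.39) and for CHH -3.43 points (-3.54 to -3.35). FLM was lower for CG in 88.8% of the elements. For CG 37 elements were lower by at least 10 points (1.10%, against 5.34% of all TEs) and 2 higher (0.0594%, against 2.52%). For CHG 917 were lower by at least 5 points (27.3%, against 18.6%) and 3 higher (0.0892%, against 3.84%), and for CHH 908 were lower (27.0%, against 17.7%) and 2 higher (0.0594%, against 2.97%). With 10 reads per cytosine the median of FLM minus untreated was -2.66 points for CG, -2.58 for CHG and -2.23 for CHH, and that of treated minus untreated -3.41 for CHG and -3.57 for CHH. Both comparisons share the untreated library. Among other TEs over 4000 bp, 46.1% were lower in FLM for CHG and 53.3% for CHH. Restricted to elements with a mean of at least 4 reads per cytosine in both libraries, 9 elements were lower for CG, 305 for CHG and 288 for CHH.

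The named elements of this comparison were thinly covered. The largest decrease was that of a G7707-MAP3 element on scaffold 114 (353556 to 358830), with 68.8% in FLM and 88.2% in untreated mycelium at 95 common CG sites. A G9864-MAP3 element on scaffold 82 (125015 to 131894) had 73.4% in FLM and 90.2% in untreated mycelium at 31 sites. A G13099-MAP5 element on scaffold 41 (352465 to 359318) had 73.3% in FLM and 89.5% in untreated mycelium at 20 sites. The 1 increase with at least 20 common sites, in a G8324-MAP5 element on scaffold 80 (416339 to 423335), had 78.9% in FLM and 66.1% in untreated mycelium at 22 sites. Apart from the scaffold 114 element, these had a mean of 0.829 to 1.14 reads per cytosine in the untreated library.

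The depth of the bisulfite reads, divided by the mean of the library, differed between FB and FLM for blocks of long elements. The natural log ratio of FB to FLM was at most -0.3 in 642 elements (19.1%, against 11.6% of all TEs) and at least 0.3 in 24 (0.712%, against 11.6%). Other TEs over 4000 bp were similar, with 19.4% lower and 2.30% higher in FB. The lower elements were grouped on scaffolds. Of the 126 scaffolds with at least 10 long elements, 6 had at least 95% of them lower in FB (scaffolds 33, 103, 15, 51, 61 and 28, 140 of 141 elements), and 41 scaffolds with 658 elements had none. On scaffold 33 the median relative depth was 0.506 in FB, 1.08 in FLM and 1.05 in untreated mycelium, and on scaffold 28 it was 0.791 in FB, 1.31 in FLM and 1.47 in untreated mycelium. Scaffold 61 differed in another way, with 0.707 in FB, 1.21 in FLM and 0.663 in untreated mycelium, and scaffold 46 had 0.720 in FB, 1.19 in FLM and 0.556 in untreated mycelium. On scaffolds 61 and 46 it was thus FLM that stood apart from both other libraries.

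The CG difference moved with this depth ratio, and CHH did not follow it. In the 642 elements that were lower in depth in FB, the median of FB minus FLM was -1.08 points for CG, with 72 elements lower and 15 higher by at least 10 points. In the other 2728 elements it was +1.30 points, with 40 lower and 94 higher. The CHH medians of the 642 elements were 18.4% in FB and 16.7% in FLM, against 18.6 and 18.0% in the others. The FB median for CHH was thus above the FLM median in both groups, and more so in the 642. Whether copy number, mapping or depth takes part in these differences was not tested.

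RNA reads on long Gypsy elements were very few. The authors kept reads that aligned at 1 place only and lay within 1 gene or TE, so reads shared by copies were not counted, and what share of the RNA of these repeats this removes was not tested. FB had 61 reads on all long elements, FLM 24, treated 240 and untreated mycelium 394, beside 23397373 reads on genes in FB, 23816308 in FLM, 21802480 in treated and 22446163 in untreated mycelium. Per 1000000 reads on genes these were 2.61 in FB, 1.01 in FLM, 11.01 in treated and 17.6 in untreated mycelium. At least 1 read was found on 48 elements in FB (1.42%, exact 95% interval 1.05 to 1.88%, against 5.27% of all TEs) and on 3 in FLM (0.0890%, 0.0184 to 0.260%, against 4.23%). It was found on 58 in the treated (1.72%, 1.31 to 2.22%, against 7.14%) and 240 in the untreated mycelium (7.12%, 6.28 to 8.04%, against 8.44%). Most of these were single reads, with exactly 1 read on 42 elements in FB, 0 in FLM, 39 in treated and 213 in untreated mycelium. With at least 3 reads the counts were 2 in FB, 3 in FLM, 11 in treated and 9 in untreated mycelium.

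No long Gypsy element reached the level of an expressed TE. The deposited RPKM (reads per kb of the element per 1000000 mapped reads) was over 1 in 0 of 3370 elements in each library, against 0.858% of all TEs in FB, 0.872% in FLM, 1.04% in treated and 1.05% in untreated mycelium. A count of 0 allows a share of up to 0.0890% (3 elements), and the exact upper bound is 0.109%. The highest RPKM was 0.0148 in FB, 0.0301 in FLM, 0.179 in treated and 0.192 in untreated mycelium. The library totals behind the FB and FLM values are the reverse of the mapped reads that the paper gives for these samples. Whether the totals or the sample labels are exchanged cannot be told from the sources used here. All FB and FLM RNA values here follow the deposited labels. The Gypsy elements of 701 to 4000 bp had 19 over 1 in FB, 13 in FLM, 16 in treated and 17 in untreated mycelium. In all, 3049 long elements had no read in any library, 321 had at least 1 read in at least 1 library, and 1 element had reads in all 4.

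That 1 element was the unmethylated R915-MAP12 copy on scaffold 153 (57876 to 65160). It had 8 reads in FB, 14 in FLM, 79 in treated (exact Poisson 95% interval 62.5 to 98.5) and 87 in untreated mycelium (69.7 to 107). The treated and untreated counts overlap in these intervals, at a log2 ratio of -0.10 per reads on genes. The CG level of the element was 2.08% in FB, 0.303% in ECM, 0.398% in FLM, 0.712% in treated and 0.612% in untreated mycelium. Its outer 500 bp at both ends stood higher in FB, at 13.8%, against 0.534% in its interior. These ends had 0% in ECM, 0.0516% in FLM, 3.21% in treated and 0% in untreated mycelium. Its nearest placed gene, GSTUMT00002880001, lies 434 bp away. All 24 reads in FLM fell on 3 unmethylated elements, this one, the G13982-MAP6 copy on scaffold 111 (6 reads) and the G14358-MAP3 copy on scaffold 40 (4 reads).

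The 11 elements under 10% CG in both FB and FLM took more of the reads than their length. They make up 64986 of 24634946 bp, and they held 14.8% of the reads on long elements in FB, 100% in FLM, 34.2% in treated and 22.3% in untreated mycelium. Most of these reads were those of the scaffold 153 copy. Of the 11, 2 had a read in FB, 3 in FLM, 2 in treated and 2 in untreated mycelium, so that most unmethylated long elements had no read in a given library. Among the 3359 other elements, 46 had a read in FB, 0 in FLM, 56 in treated and 238 in untreated mycelium.

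The most read methylated elements were seen in the liquid cultures alone. The G11814-MAP6 element on scaffold 118 (240741 to 250473) had 28 reads in treated (18.6 to 40.5) and 12 in untreated mycelium (6.20 to 21.0), with CG levels of 89.9% in treated and 89.4% in untreated mycelium. The G9825-MAP7 element on scaffold 298 (6309 to 13789) had 20 reads in treated (12.2 to 30.9) and 9 in untreated mycelium (4.12 to 17.1). The R5-MAP20 copy on scaffold 18 (347244 to 353443) had 16 reads in treated and 8 in untreated mycelium, and the G15006-MAP5 element on scaffold 91 (151773 to 155832) had 15 in treated and 8 in untreated mycelium. All 4 had 0 reads in FB and FLM, and more reads in treated than in untreated mycelium. The Poisson intervals of the treated and untreated counts overlap for each, which does not show that the counts are equal. The remaining named elements had at most 7 reads in any library, with 5 in treated and 7 in untreated mycelium for another R5-MAP20 copy on scaffold 57 (547691 to 553464), 7 in treated and 5 in untreated mycelium for a P171.3-MAP4 copy on scaffold 61 (287722 to 295470), 2 in treated and 5 in untreated mycelium for a G11389-MAP4 element on scaffold 189 (67403 to 77778), and 4 in each culture and 2 in FB for a G12426-MAP3 element on scaffold 20 (13367 to 20383).

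**Figure D5:**
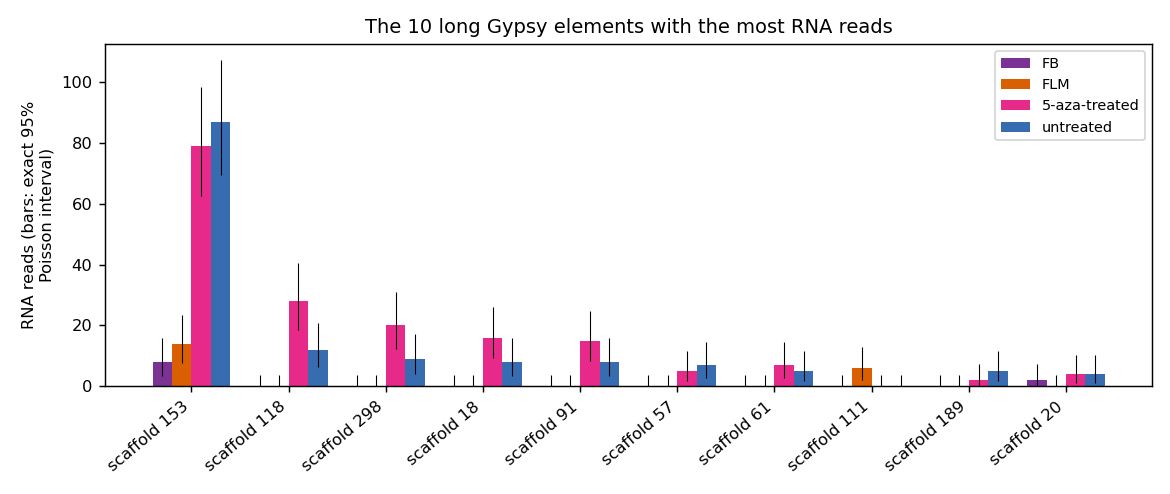
RNA reads (y axis, counts) on the 10 long Gypsy elements with the most reads (x axis, by scaffold) in the 4 RNA libraries, with exact 95% Poisson intervals as error bars. The scaffold 153 copy has 8 reads in FB, 14 in FLM, 79 in treated and 87 in untreated mycelium, and no other element has more than 28.

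Few elements could be called for a change in RNA. The call asked for a 4-fold difference per reads on genes and at least 10 reads in 1 library. For treated against untreated mycelium 5 long elements had 10 reads, and none was 4-fold higher or lower, against 4.06% of all TEs with 10 reads higher and 1.59% lower. At 2-fold 2 were higher in the treated mycelium. For FB against FLM 1 element had 10 reads, and it was not called, against 27.3% of all TEs higher and 23.3% lower. Of the elements with a read in the treated and the untreated mycelium 18 were shared, 31.0% of the 58 and 7.50% of the 240. Over all TEs the shared elements were 65.1% of the treated and 55.0% of the untreated list, and among other TEs over 4000 bp 66.7% and 32.1% in the same order. Since most of the long elements listed had exactly 1 read, the part of counting error in the low overlap was not tested.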

How the data were processed

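BS-seq calls of 5 libraries and RNA-seq tables of 4 libraries were used, with samples grouped by the labels. For methylation, the authors aligned reads with BS Seeker (version not given in the sources used here) to the v1.0 assembly and deposited counts of methylated and of all reads per cytosine and strand. For RNA, the deposited read counts per TE and gene come from 50-nt reads, aligned with TopHat2 2.0.4 and counted with HTSeq 0.5.4p3 per the submitters' notes, and they keep only unique alignments within 1 gene or TE. RPKM values, computed by the authors, were used as deposited. The feature length in bp was deposited in the same tables. Columns of other series numbered 0.

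FB, ECM and FLM calls give the first base of a scaffold as 0, the treated and untreated calls as 1, and all positions were made to start at 1. Cytosines without a stated context (at most 643 per library) were left out. The mean depth was 20.1 reads per listed cytosine in FB, 1.35 in ECM, 19.9 in FLM, 8.64 in treated and 7.35 in untreated mycelium. Levels used cytosines with at least 4 reads (1 in ECM) and at least 10 cytosines of a context per element, and comparisons used cytosines with the minimum in both libraries. Calls asked for 10 points in CG and 5 points in CHG and CHH, and each background is the share of all classified TEs that passed the same rule. RNA ratios used reads plus 1, per 1000000 reads on genes, and depth calls a natural log ratio of 0.3. RNA comparisons also need at least 10 reads in 1 library. No test between conditions was made, since each has 1 library. Medians carry order-statistic and shares exact Clopper-Pearson 95% intervals. The reads carry no molecular identifiers, and no interval covers variation between samples.

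The elements named are the longest and the shortest, the 10 with the most CG sites among those under 10% CG in FB and FLM, the 10 with the most RNA reads, up to 3 per direction and comparison with the largest CG difference past the call at 20 or more common CG sites, and 3 families of at least 10 long copies at each end of the FB medians. The remaining element under 10% and the P130.126-MAP3 copy as a member of the low group were singled out after their values were seen. The members and lists were chosen with earlier results of these data known. Alternatives covered the read minimum, pooling of reads, bases shared with other repeats, the length limit, the edge width, the call thresholds and the RNA scaling. The steps were tested on simulated data. Python 3.11.15, numpy 2.4.6, pandas 2.3.3, scipy 1.17.1, numba 0.67.0, pyarrow 21.0.0 and matplotlib 3.10.9 were used.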

Additional observations from a re-analysis of the deposited data

How the results depend on the processing

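No difference changed sign under any alternative run. Of the values under alternatives listed with the design, 139 stayed within the 95% interval of their median or within 1.5 times their count, and 94 moved by more. Of those under alternatives chosen after seeing the data (common cytosines, a mean of 4 reads per cytosine, and RNA without the most read element), 17 stayed and 17 moved. The number of elements under 10% CG and the absence of RPKM over 1 were among those that stayed under each alternative run for them. No paired analysis was possible because each condition has 1 library. ECM rests on single reads per site, and calls of single elements with few common sites depend on the minimum. The cause of each move was not tested. The values that moved are given below as levels in percent, differences in points and numbers of elements.

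With a minimum of 10 reads per cytosine (2 in ECM), the median CG level was 83.0 in FLM, 87.2 in treated and 87.2 in untreated, and the median CHG level was 17.3 in FB, 17.0 in ECM, 14.98 in FLM, 15.9 in treated and 19.4 in untreated. The median CHH level was 19.6 in FB, 20.2 in ECM, 18.7 in FLM and 21.6 in untreated, and edges minus interior for CG was 0.214 in ECM and 3.24 in treated. FB minus FLM gave for CHG 2.01 points and 306 higher and for CHH 68 higher and 24 lower, and treated minus untreated gave for CG 5 higher and 1 lower, for CHG -3.41 points, 23 higher and 791 lower and for CHH -3.57 points, 12 higher and 822 lower. With reads pooled over the sites of an element, the median CG level in FB was 82.9 and in FLM 82.7, and the median CHG level was 17.3 in FB, 14.9 in FLM, 15.7 in treated and 19.0 in untreated. The median CHH level in FB was 19.6 and in FLM 18.5, and edges minus interior for CG was 3.29 in FB and 4.37 in FLM. FB minus FLM gave for CG 1.25 points and 164 higher, for CHG 2.27 points and 290 higher and for CHH 0.928 points and 60 higher, and treated minus untreated gave for CG -0.144 points and 1 lower, for CHG 1 higher and for CHH -3.42 points. In elements over 5000 bp, the median CG level was 83.1 in FLM, and the median CHG level in FB was 16.2 and in FLM 14.1. The median CHH level was 18.4 in FB, 19.8 in ECM and 17.6 in FLM, and edges minus interior for CG was 3.28 in FB, 4.18 in FLM, 3.24 in treated and 3.40 in untreated. At cytosines with 4 reads in each of FB, FLM, treated and untreated mycelium, the median CG level in FB was 85.1 and in FLM 84.4, and the median CHG level was 17.2 in FB, 15.2 in FLM and 18.9 in untreated. The median CHH level in FB was 19.3 and in FLM 18.6. With the outer 200 bp as edge, edges minus interior for CG was 3.68 in FB, 4.96 in ECM, 4.94 in FLM, 4.06 in treated and 4.0 in untreated. With the outer 1000 bp as edge, edges minus interior for CG was 1.69 in FB, 1.52 in ECM, 1.99 in FLM, 1.35 in treated and 1.41 in untreated. With at least 4 CG sites per element, the median CG level of shorter Gypsy elements was 85.7 in FB, 82.1 in ECM, 86.5 in FLM, 89.8 in treated and 89.8 in untreated. With a call at 20 points, FB minus FLM gave for CG 9 higher and 17 lower. With a call at 10 points, treated minus untreated gave for CHH 1 higher and 4 lower. With 2 reads per site in ECM, ECM minus FLM gave for CG 354 higher, for CHG 2.36 points and 280 lower and for CHH 828 higher and 241 lower. With 10 reads in both libraries, FLM minus untreated gave for CG -2.66 points, 41 higher and 175 lower, for CHG -2.58 points and 40 higher and for CHH -2.23 points, 25 higher and 537 lower. In elements with a mean of 4 reads per cytosine in both libraries, FB minus FLM gave for CG 70 lower and for CHG 3 lower, and FLM minus untreated gave for CG 0 higher and 9 lower, for CHG -3.01 points, 1 higher and 305 lower and for CHH -2.94 points, 0 higher and 288 lower. With at least 3 reads, the number of elements with RNA was 2 in FB, 11 in treated and 9 in untreated. With a call at 2-fold, 2 elements were higher in RNA in treated mycelium. With a log ratio of 0.5, 3 elements were higher in depth in FB, and 344 were lower.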

Other observations

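The families that hold the 12 long elements under 10% CG also have copies of up to 4000 bp, which were not part of the long set. Their values were looked up after the 12 elements were known. In R1921-MAP3, 145 of the 147 measured shorter copies were under 10% CG in FB and 145 of 147 in FLM, with medians of 0.401% in FB and 0.284% in FLM. In G14358-MAP3 all 11 shorter copies were under 10% in both stages. R915-MAP12 was divided, with 29 of 61 measured shorter copies under 10% in FB and 23 of 60 in FLM. P130.126-MAP3 had 4 of 20 in FB and 3 of 20 in FLM, while neither the 3 shorter copies of G10537-MAP3 nor the 2 of G13982-MAP6 were under 10%.

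RNA separated these families. The 155 shorter copies of R1921-MAP3 held 9875 reads in FB, 4044 in FLM, 8561 in treated and 8862 in untreated mycelium. An RPKM over 1 was found in 34 of them in FB, 27 in FLM, 41 in treated and 43 in untreated mycelium, with a highest RPKM of 76.5 in FB and 28.9 in FLM. The shorter copies of G14358-MAP3 held 1865 reads in FB, 128 in FLM, 214 in treated and 136 in untreated mycelium. Those of R915-MAP12 held 3 reads in FB, 4 in FLM, 6 in treated and 8 in untreated mycelium. Both long copies of R1921-MAP3 together had 1 read in FB, 0 in FLM, 3 in treated and 1 in untreated mycelium. Like most shorter copies, both were under 10% CG as a mean over the element. The outer 500 bp of the copy at 203148 stood higher, at 13.9% (FB), 22.1% (FLM), 19.3% (treated) and 21.7% (untreated). Its interior had at most 0.548% in these libraries. The ends of the copy at 100711 had 3.43% (FB), 0.302% (FLM), 1.13% (treated) and 0.532% (untreated). Whether methylated ends take part in the low read numbers was not tested. With 1 library per condition none of these differences was tested.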
